A study of Mus musculus with 7 samples.

Results

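The 10 genes described here belong to the BCL2 family, the proteins that set whether a cell keeps or loses the integrity of its mitochondrial outer membrane. They were taken by symbol from a table of 24421 genes, and all 10 were found. The 5 anti-apoptotic members were Bcl2, Bcl2l1, Mcl1, Bcl2a1b and Bcl2a1d, and the 5 pro-apoptotic members were Bcl2l11, Bax, Bak1, Bbc3 and Bid.

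The libraries held RNA of SiglecF-positive eosinophils, the granulocytes of type 2 immunity, from digested mouse muscle 3 days after ntx, an abbreviation that the labels leave unexplained. The gate also required CD45 and excluded NK1, Ly6G and CD3e. There were 3 libraries of mice with the genotype label WT and 4 of mice labelled IL5-Tg, and the design text describes the muscles as damaged and IL-5Tg mice as hyper-eosinophilic. The labels name no strain, age, sex or transgene promoter. The series title names mdx mice, while each genotype label reads only WT or IL5-Tg. Nothing in the labels says whether libraries came from separate mice, so the p-values reflect how much these libraries varied, and that spread may be technical.

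In the mitochondrial pathway of apoptosis, BAX and BAK form pores in the outer membrane and release cytochrome c. The anti-apoptotic members hold them, and their activators, in check through a groove that binds the BH3 segment. BH3-only proteins such as BIM (Bcl2l11), PUMA (Bbc3) and BID are induced or activated by growth factor loss, damage or death receptors, and fill that groove or activate BAX and BAK. Eosinophils are short-lived cells that depend on IL-5, IL-3 and GM-CSF for survival. Signalling from their shared receptor through STAT5 is known to sustain anti-apoptotic members, BCL-XL (Bcl2l1) among them. MCL1 is a protein of fast turnover on which granulocytes rely.

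Il5 was read at 349, 447, 338 and 368 CPM (reads scaled to library size, with TMM factors) in IL5-Tg replicates 1 to 4, and at 1.39, 0 and 0 CPM in WT replicates 1 to 3, so the libraries matched their genotype labels. Between 9665093 and 17447106 reads per library were assigned to genes. The eosinophil markers Siglecf (251 to 857 CPM) and Ccr3 (575 to 1393 CPM) were present in all 7 libraries. Their groups overlapped, as did those of Alox15, Cebpe and Il5ra. Il5ra was at 83.8 to 181 CPM in WT and 48.0 to 88.3 CPM in IL5-Tg libraries. The groups did not overlap for Prg2 and Epx. Prg2 was at 104 to 144 CPM in WT and 423 to 1122 CPM in IL5-Tg libraries, and Epx at 2.72 to 15.2 and 15.9 to 32.8 CPM. RNA of other cells was present as well. WT replicate 3 stood apart from the other libraries: its 6 fibroblast markers summed to 12.8 CPM with 2 of 6 at 0 reads, against 1764 to 4301 CPM in the other 6 libraries, and its 4 muscle progenitor markers were all at 0 reads. The 8 macrophage and monocyte markers summed to 3512, 5142 and 3736 CPM in WT and to 4788 to 5672 CPM in IL5-Tg libraries. In WT replicate 3, Adgre1 gave 2459 CPM of that sum. Which cells carried the Adgre1 reads was not tested, so the sum need not stand for macrophage RNA alone. C1qa (68.4 CPM), C1qb (99.8 CPM) and Cd68 (109 CPM) were lower there than in every other library. Elsewhere they were at 350 to 776, 431 to 1013 and 266 to 658 CPM. C1qc and Mrc1 were also lowest there, while Adgre1 was highest and Csf1r and Ly6c2 lay inside the range of the rest. Mast cell and basophil markers summed to 207 to 477 CPM in WT and 56.0 to 76.9 CPM in IL5-Tg libraries, and neutrophil markers to 40.9 to 434 CPM and 34.7 to 61.7 CPM. The part of these cells in the levels of Mcl1, Bbc3 and the other members was not tested. Where leaving out WT replicate 3 moved the log2 fold change of a member by over 1.5 times, and for Bcl2l1 and Bcl2, both values are given. In such bulk samples, fewer cells of a type and less RNA per cell cannot be told apart.

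The copies of Bcl2a1 differ so little in sequence that their reads are hard to assign, which bears on 2 of the members. Bcl2a1b (chromosome 9, 89199209 to 89207827, plus strand, mm10, GENCODE vM21), Bcl2a1d (chromosome 9, 88723285 to 88731914, minus strand) and Bcl2a1a (chromosome 9, 88956900 to 88962419, plus strand) each have 519 coding bases including the stop codon. Of these, 12 positions differ among the 3 copies, and coding positions 95 to 311 form a run of 217 bases that is the same in all. The coding bases 1 to 126 of the GENCODE vM21 transcripts, counted from the A of the start codon, hold 7 of the 12 differences and are shown because reads can be told apart only across such positions. The capitals mark the positions that differ among the copies.
Bcl2a1a: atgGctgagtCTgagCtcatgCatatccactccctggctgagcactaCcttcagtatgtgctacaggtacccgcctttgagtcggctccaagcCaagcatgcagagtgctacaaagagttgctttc
Bcl2a1b: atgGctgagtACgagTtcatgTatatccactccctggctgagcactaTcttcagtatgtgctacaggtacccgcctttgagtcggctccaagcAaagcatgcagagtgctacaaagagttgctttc
Bcl2a1d: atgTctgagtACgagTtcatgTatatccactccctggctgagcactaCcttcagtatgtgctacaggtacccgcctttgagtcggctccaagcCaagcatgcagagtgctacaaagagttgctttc
Bcl2a1b and Bcl2a1d were identical at 98.8% of coding bases, Bcl2a1a and Bcl2a1d at 98.7%, and Bcl2a1a and Bcl2a1b at 97.9%. At the read length of 42 bases given in the labels, 82.7% of the windows of the Bcl2a1b transcript and 83.6% of those of Bcl2a1d also occurred in another annotated gene, and 62.9% and 83.6% in another Bcl2a1 gene. For the other members at most 9.54% of windows (Bax) occurred in any other annotated gene, and none did for Bcl2l1, Bak1, Bbc3 and Bid. Each window stands for a single read. The second read of a pair was not considered, so these are not shares of read pairs that cannot be placed.

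None of the 10 members passed the test of IL5-Tg against WT libraries. Anti-apoptotic members differed in sign, with Bcl2l1 and Bcl2 at higher levels and Mcl1 at lower levels in every IL5-Tg library than in any WT library, while the pore formers Bax and Bak1 overlapped between the groups. By the quasi-likelihood test of edgeR with Benjamini-Hochberg adjustment over all 12428 tested genes, 0 of 10 members were called at an adjusted p under 0.05. The test called 51 genes, or 0.410% of those tested, with 42 (0.338%) higher and 9 (0.0724%) lower in IL5-Tg libraries. That split was 30 higher and 31 lower without WT replicate 2, 141 and 84 by DESeq2, and 72 and 28 after dividing counts by the most frequent low count. At an unadjusted p under 0.05 there were 4 of 10 members (Bcl2l1, Mcl1, Bcl2 and Bbc3), against 9.04% of all tested genes. DESeq2 called 1 of 10 members, Bcl2l1, and 1.81% of all genes, and limma-voom called 0 of 10. The same 4 members had groups that did not overlap, 2 higher and 2 lower in IL5-Tg libraries, where 4.76% and 4.60% of all tested genes were so placed and 9.36% in both directions. The members were chosen with earlier results of these data known. Their median log2 fold change was 0.21, against 0.026 over all tested genes, with 7 of 10 above 0.

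**Figure D1:**
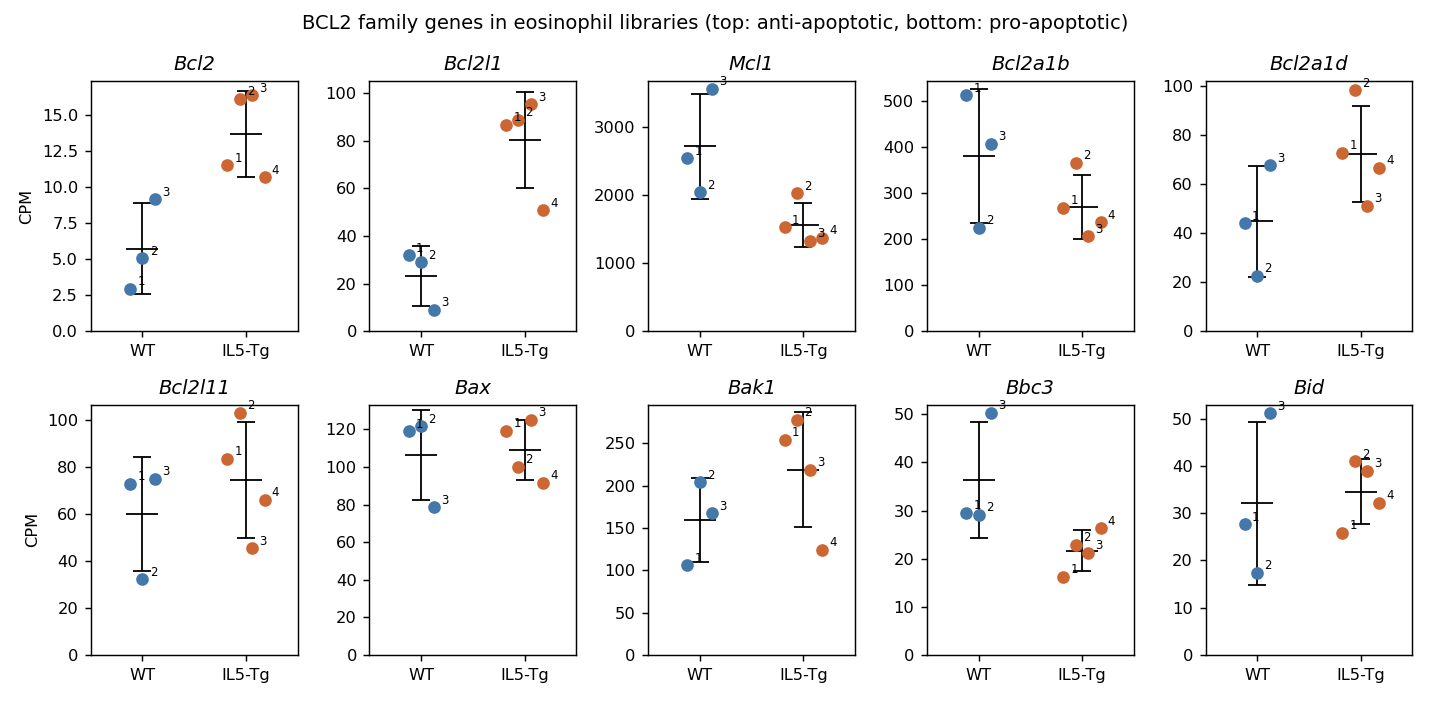
Level of each of the 10 members in CPM (vertical axes, each from 0) in the 3 WT (blue) and 4 IL5-Tg (orange) libraries, with the replicate number beside each point and the group mean and 1 SD as black lines. The groups do not overlap for Bcl2, Bcl2l1, Mcl1 and Bbc3, and they overlap for the other 6.

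Bcl2l1 encodes BCL-XL, an anti-apoptotic protein of the outer mitochondrial membrane, and lies on chromosome 2 at 152780668 to 152831728 on the minus strand in the mm10 annotation. Bcl2l1 was read at 32.0, 28.9 and 8.88 CPM in WT replicates 1, 2 and 3, from 529, 274 and 94 reads. In IL5-Tg replicates 1 to 4 it was 86.7, 88.9, 95.4 and 50.7 CPM, from 925, 1156, 1309 and 977 reads. All IL5-Tg libraries lay above all WT libraries, with IL5-Tg replicate 4 nearest to WT and WT replicate 3 lowest. The WT mean was 23.3 ± 12.5 CPM (SD, n = 3), and the IL5-Tg mean, 80.4 ± 20.1 CPM (SD, n = 4), was 3.46 times as high. The log2 fold change was 1.79 ± 0.43 (SE; 95% interval 0.83 to 2.75), and it did not pass over all genes (edgeR adjusted p = 0.167). With DESeq2, the value was 1.81 and passed (adjusted p = 0.00445). The adjusted p of Bcl2l1 over all 15 alternative settings ranged from 0.00445 to 0.567.

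WT replicate 3, where Bcl2l1 was lowest, was also the library with the fewest reads of fibroblast and muscle progenitor markers. Without it, the log2 fold change of Bcl2l1 was 1.43 (edgeR adjusted p = 0.0803), from WT libraries whose fibroblast markers summed to 2706 and 2911 CPM, inside the IL5-Tg range of 1764 to 4301 CPM. With the mean log2 level of fibroblast and macrophage markers as a covariate it was 1.44 (edgeR adjusted p = 0.0907). That covariate mostly sets WT replicate 3 apart, so this fit largely repeats the one without that library. The fibroblast marker mean was 1.29 in WT replicate 3 and 6.81 to 8.41 in the other libraries. Muscle fibre markers were not matched in this way. The 6 of them summed to 273, 299 and 94.2 CPM in WT replicates 1 to 3. In IL5-Tg libraries the sum was 306 to 995 CPM, higher in each than in any WT library. The margin was small for IL5-Tg replicate 2, at 306 CPM against 299 CPM in WT replicate 2. By mean log2(CPM + 1) the groups overlapped, at 4.65 in IL5-Tg replicate 2 and 4.76 in WT replicate 2. Of the 6 markers, only Acta1 and Ckm had groups that did not overlap. Which cells of the sort carried the Bcl2l1 reads was not tested. WT replicate 3 also had the highest most frequent low count per gene, 12 reads, against 5 and 8 reads in WT replicates 1 and 2 and 1 to 4 reads in IL5-Tg libraries. Dividing all counts by these values gave 1.75 on the log2 scale (edgeR adjusted p = 0.0550).

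**Figure D2:**
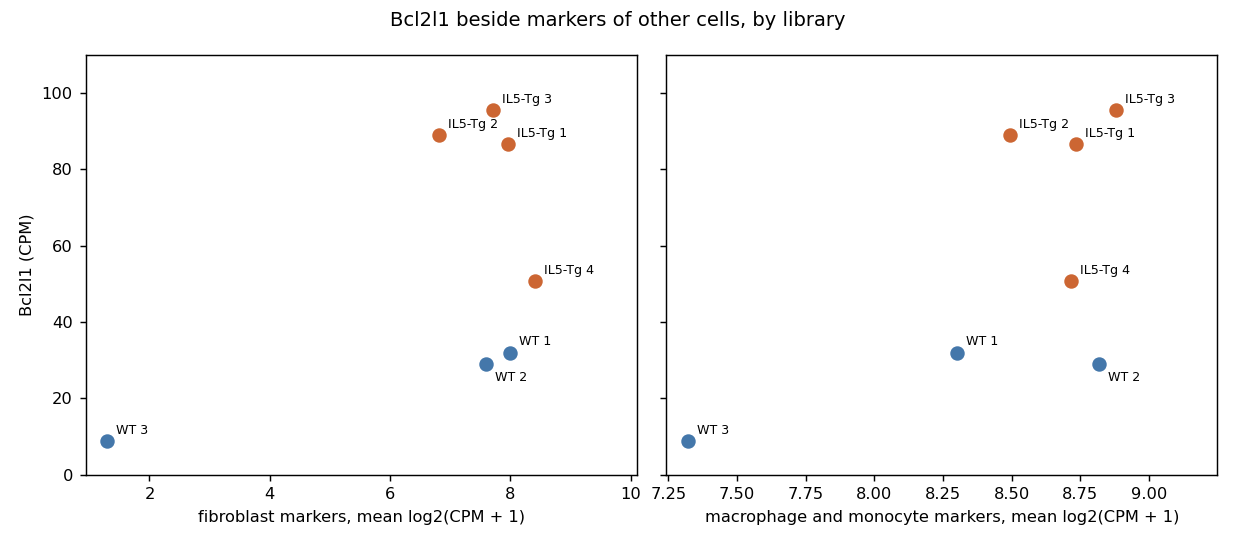
Bcl2l1 in CPM (vertical axis) against the mean log2(CPM + 1) of 6 fibroblast markers (left) and 8 macrophage and monocyte markers (right), 1 point per library, WT in blue and IL5-Tg in orange. WT 3 lies alone at the low end of both marker axes, and WT 1 and WT 2 lie below all IL5-Tg libraries at similar fibroblast marker levels.

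Bcl2, the founding anti-apoptotic member, lies on chromosome 1 at 106538178 to 106714274 on the minus strand. It had the fewest reads of the members in every library but WT replicate 3, where Bcl2l1 had fewer, at 94. Bcl2 was at 2.96, 5.07 and 9.17 CPM in WT replicates 1 to 3, from 49, 48 and 97 reads. In IL5-Tg replicates 1 to 4 it was at 11.5, 16.1, 16.4 and 10.7 CPM, from 123 to 225 reads. The groups did not overlap, but the highest WT library and the lowest IL5-Tg library were close. The mean of 5.73 ± 3.16 CPM (SD, n = 3) in WT compared with 13.7 ± 3.00 CPM (SD, n = 4) in IL5-Tg libraries, with a log2 fold change of 1.26 ± 0.47 (SE; 95% interval 0.23 to 2.29; edgeR adjusted p = 0.446). Unlike Bcl2l1, Bcl2 was highest among WT libraries in WT replicate 3, and without that library its log2 value was 1.80 (edgeR adjusted p = 0.117).

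Mcl1 (chromosome 3, 95658788 to 95663176, plus strand) had more reads than any other member in every library. Its level was 2547, 2045 and 3566 CPM in WT replicates 1 to 3 and 1528, 2031, 1333 and 1373 CPM in IL5-Tg replicates 1 to 4. The groups did not overlap, although WT replicate 2 and IL5-Tg replicate 2 were close to each other. The mean was 1.74 times as high in WT, at 2719 ± 775 CPM (SD, n = 3), as in IL5-Tg libraries, at 1566 ± 321 CPM (SD, n = 4). The log2 fold change of -0.80 ± 0.28 (SE; 95% interval -1.42 to -0.17) did not pass (edgeR adjusted p = 0.415). It was -0.52 without WT replicate 3, the library with the most Mcl1, and -0.51 with the marker covariate.

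The reads of Bcl2a1b and Bcl2a1d, whose product A1 is a small anti-apoptotic protein of leukocytes, differed in sign between the copies. Bcl2a1b was at 513, 225 and 408 CPM in WT replicates 1 to 3 and 268, 366, 207 and 237 CPM in IL5-Tg replicates 1 to 4, with overlapping groups and a log2 fold change of -0.50 ± 0.32 (SE; 95% interval -1.21 to 0.20; edgeR adjusted p = 0.743). Bcl2a1d was at 44.0, 22.6 and 67.7 CPM in WT and 72.7, 98.2, 51.0 and 66.5 CPM in IL5-Tg libraries, also overlapping, with a log2 fold change of 0.69 ± 0.37 (SE; 95% interval -0.14 to 1.51; edgeR adjusted p = 0.664). The Bcl2a1d value was 1.14 without WT replicate 3 and 0.39 without WT replicate 2, and that of Bcl2a1b was -0.22 without WT replicate 1. Bcl2a1a, a copy outside the 10 members, was at 19.5 to 28.2 CPM in WT and 44.9 to 83.2 CPM in IL5-Tg libraries and did not overlap. Its log2 fold change of 1.32 ± 0.29 (SE) had an adjusted p of 0.124 by edgeR and of 0.00456 by DESeq2. Bcl2a1c had 0 to 8 reads per library and was not tested.

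The split of reads among the Bcl2a1 copies differed between the groups in every library, while their sum did not pass. Bcl2a1b took 87.7%, 84.2% and 81.4% of the reads of the 4 copies in WT replicates 1 to 3, from totals of 9689, 2532 and 5300 reads, and 66.9%, 66.9%, 65.8% and 68.0% in IL5-Tg replicates 1 to 4. Exact (Clopper-Pearson) 95% intervals were 80.3% to 82.4% for the lowest WT share and 66.9% to 69.1% for the highest IL5-Tg share. At most they cover counting error, and they treat each read as an independent draw. With a most common low count of 5 to 12 in WT and 1 to 4 in IL5-Tg libraries, they may be too narrow, more so in WT. Whether reads were independent was not tested. The share of Bcl2a1a was 4.82% to 7.31% in WT and 12.9% to 17.7% in IL5-Tg libraries, and that of Bcl2a1d was 7.51% to 13.5% and 16.3% to 19.1%. These shares were examined after the data were seen and are given without a test. With all copies summed into 1 row, the level was 585, 267 and 501 CPM in WT and 401, 548, 314 and 348 CPM in IL5-Tg libraries. The log2 fold change of the sum was -0.16 ± 0.32 (SE; 95% interval -0.87 to 0.54; edgeR adjusted p = 0.940). It changed sign, to 0.075, without WT replicate 1, the library with the highest Bcl2a1b level, and was -0.047 without WT replicate 3. The program that counted reads is not given in the sources used here. Whether reads that fit several copies were dropped or divided was not tested. In the annotation, exons of Gm29094 on the same strand cover 49.1% of the exon bases of Bcl2a1b. The deposited counts have no row under the symbol Gm29094.

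Reads relative to Mcl1 inside each library do not depend on the scaling between libraries. There were 79.7, 70.7 and 401 reads of Mcl1 for each Bcl2l1 read in WT replicates 1 to 3, and 17.6, 22.9, 14.0 and 27.1 in IL5-Tg replicates 1 to 4. On the log2 scale the Bcl2l1 to Mcl1 ratio averaged -7.04 in WT (SD 1.40, n = 3) and -4.30 in IL5-Tg libraries (SD 0.42, n = 4), a difference of 2.73 with no overlap. Without WT replicate 3 the WT mean was -6.23 and the difference 1.93. The ratio of Bcl2 to Mcl1 was -9.75 to -8.60 in WT and -7.05 to -6.35 in IL5-Tg libraries. Of the 9 other members, 5 had ratios to Mcl1 that were higher in every IL5-Tg library than in any WT library (Bcl2l1, Bcl2, Bcl2a1d, Bcl2l11 and Bid), where 24.5% of all tested genes were so placed. Mcl1, the shared denominator, was itself lower in IL5-Tg libraries, and the levels of Bcl2a1d, Bcl2l11 and Bid in CPM overlapped. The ratio of Bbc3 to Mcl1 overlapped, at -6.24 ± 0.17 (SD, n = 3) and -6.18 ± 0.41 (SD, n = 4). With Bax as the denominator, whose level overlapped, the log2 ratio of Bcl2l1 was -1.90, -2.07 and -3.14 in WT replicates 1 to 3 and -0.85 to -0.17 in IL5-Tg libraries. These ratios are descriptions and carry no test.

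**Figure D3:**
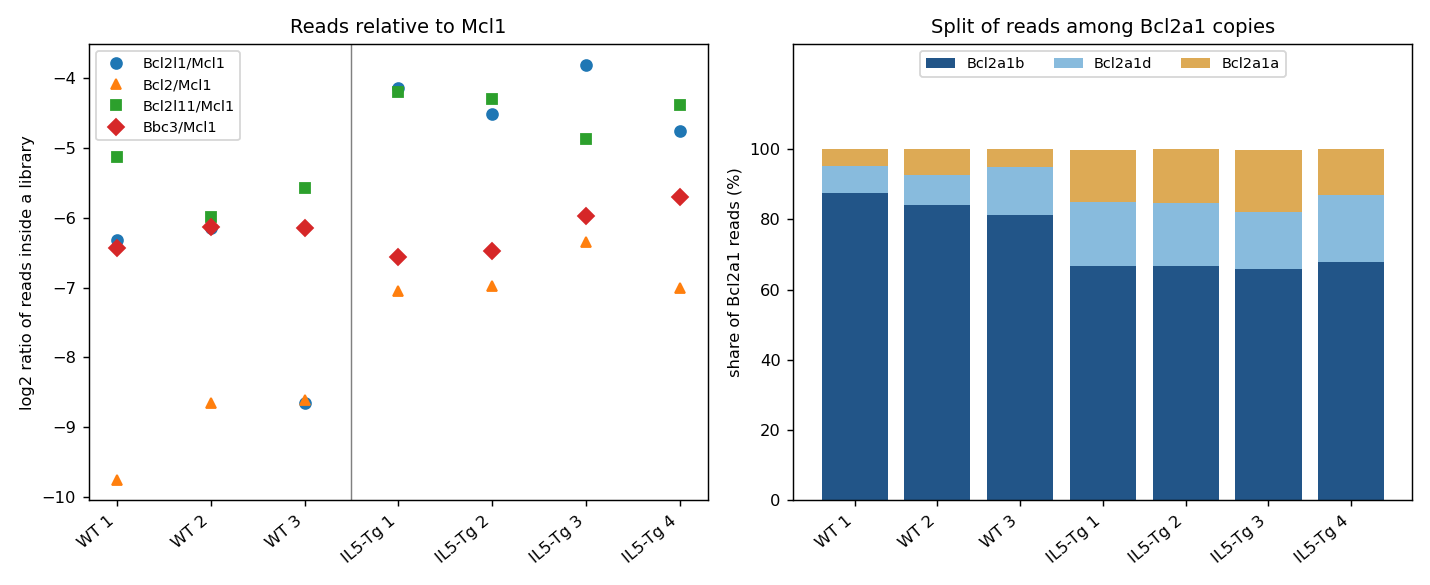
Left, log2 ratio of reads of 4 members to reads of Mcl1 inside each library (vertical axis), with the grey line between WT and IL5-Tg libraries. Right, share of Bcl2a1 reads (%) of Bcl2a1b, Bcl2a1d and Bcl2a1a per library. Bcl2a1b holds 81.4% to 87.7% in WT and 65.8% to 68.0% in IL5-Tg libraries, and the Bcl2l1 ratio is higher in every IL5-Tg library.

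Among the pro-apoptotic members, only Bbc3 had groups that did not overlap. Bbc3 encodes PUMA, a BH3-only protein known as a target of p53, and is found at 16308393 to 16318205 of chromosome 7, plus strand. It was at 29.5, 29.1 and 50.3 CPM in WT replicates 1 to 3 and 16.2, 22.9, 21.2 and 26.3 CPM in IL5-Tg replicates 1 to 4. IL5-Tg replicate 4 lay just below WT replicates 1 and 2, and WT replicate 3 was well above the rest. The log2 fold change was -0.74 ± 0.30 (SE; 95% interval -1.41 to -0.072; edgeR adjusted p = 0.501), and -0.41 without WT replicate 3.

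Bcl2l11 encodes BIM, the BH3-only protein best known for killing leukocytes deprived of cytokine, and is found at 128126038 to 128162547 of chromosome 2, plus strand. It was at 73.0, 32.2 and 75.1 CPM in WT and 83.6, 103, 45.4 and 66.0 CPM in IL5-Tg libraries, with overlapping groups (log2 fold change 0.31 ± 0.36 SE; 95% interval -0.50 to 1.12; edgeR adjusted p = 0.898). The value was 0.54 without WT replicate 3, 0.035 without WT replicate 2, the library with the lowest Bcl2l11 level, and 0.12 without IL5-Tg replicate 2, that with the highest. Bid, the BH3-only protein that caspase-8 cleaves, lies on chromosome 6 at 120891930 to 120916853 on the minus strand. It was at 27.7, 17.4 and 51.1 CPM in WT and 25.9, 41.0, 39.0 and 32.2 CPM in IL5-Tg libraries (log2 fold change 0.11; 95% interval -0.71 to 0.92; edgeR adjusted p = 0.962). The 4 IL5-Tg values of Bid lay inside the WT range. Its value was 0.64 without WT replicate 3, which had the most Bid, and -0.17 without WT replicate 2, which had the least. Exons of Bcl2l13 on the opposite strand cover 17.7% of the exon bases of Bid, so without the strand setting of the counting, which is not given in the sources used here, their reads cannot be told apart there.

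The groups overlapped for both pore formers. Bax, on chromosome 7 at 45461697 to 45466898 on the minus strand, was at 119, 122 and 78.4 CPM in WT and 119, 100, 125 and 91.4 CPM in IL5-Tg libraries. Its log2 fold change of 0.035 had a 95% interval of -0.51 to 0.58 (edgeR adjusted p = 0.983), and the value was -0.12 without WT replicate 3, the library with the lowest Bax level. Bak1, on chromosome 17 at 27019810 to 27029009 on the minus strand, was at 106, 204 and 167 CPM in WT and 255, 278, 219 and 124 CPM in IL5-Tg libraries. IL5-Tg replicate 4 lay inside the WT range and the other 3 above it, and the log2 fold change was 0.46 (95% interval -0.27 to 1.20; edgeR adjusted p = 0.790), from means of 159 ± 49.7 CPM (SD, n = 3) in WT and 219 ± 67.8 CPM in IL5-Tg libraries (SD, n = 4). It was 0.65 without IL5-Tg replicate 4, 0.70 without WT replicate 2 and 0.24 without WT replicate 1 (edgeR adjusted p = 0.553, 0.365 and 0.884).

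**Figure D4:**
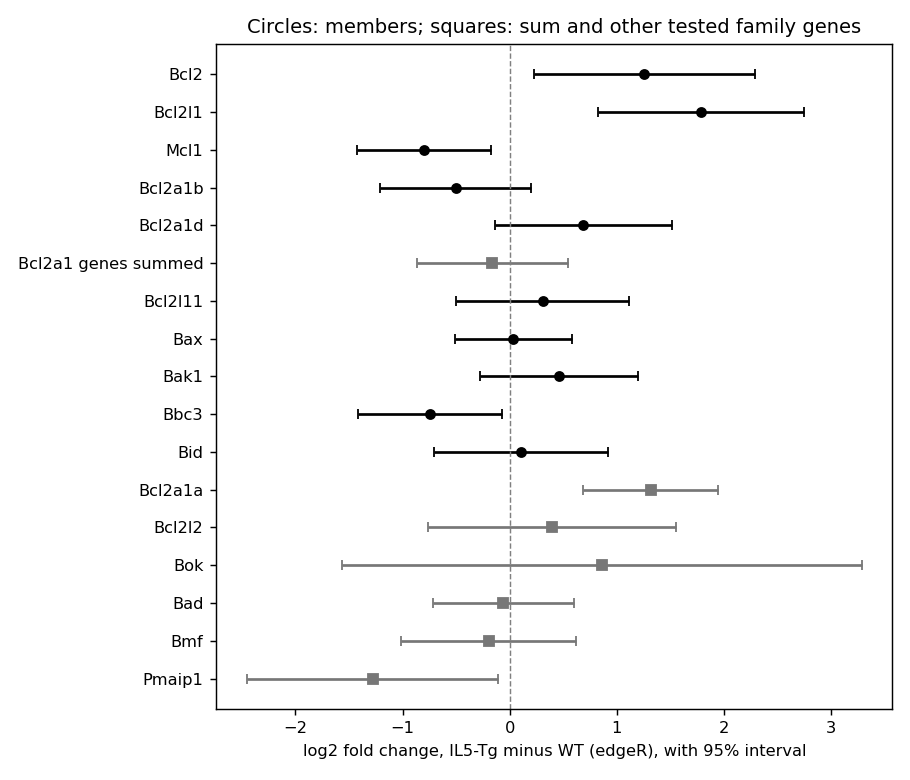
Log2 fold change of IL5-Tg minus WT by edgeR (horizontal axis) with its unadjusted 95% interval for the 10 members (circles), the summed Bcl2a1 genes and 6 other tested family genes (squares). Bcl2l1 and Bcl2 lie above 0, Mcl1 and Bbc3 below 0, and Bax and Bid near 0. None of these 17 passed after adjustment over all genes.

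Levels of different genes were compared as CPM per kilobase of annotated exon. In WT libraries Mcl1 was the highest at 796 ± 227 (SD, n = 3), followed by Bcl2a1b at 468 ± 178, whose range overlapped with that of Mcl1. Bax (67.5 ± 15.3), Bak1 (66.1 ± 20.7) and Bcl2a1d (51.9 ± 26.1) came next, each overlapping with its neighbour in the order. Below these and Bcl2a1a (29.8), with a gap between their ranges, Bbc3 (17.1), Bid (9.03), Bcl2l11 (7.49) and Bcl2l1 (5.07) followed, each overlapping with the next, and Bcl2 was lowest at 0.626 CPM per kilobase. In IL5-Tg libraries Mcl1 (458 ± 93.9; SD, n = 4) and Bcl2a1b (330 ± 84.8) again led and overlapped. Bcl2l1 stood at 17.5 ± 4.39 CPM per kilobase there, above Bbc3 (10.2), Bid (9.72) and Bcl2l11 (9.28) in the order of means, where in WT it had been below all 3. Its lowest IL5-Tg library, at 11.1, overlapped with the ranges of Bbc3, Bid and Bcl2l11. Levels per kilobase were also summed over the 5 anti-apoptotic members. Mcl1 made up 52.1% to 66.0% of that sum in WT and 50.5% to 53.8% in IL5-Tg libraries, and Bcl2l1 made up 0.119% to 0.696% and 1.42% to 2.87%. Bcl2a1a, with means of 29.8 in WT and 74.3 in IL5-Tg libraries, is not in the sum.

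**Figure D5:**
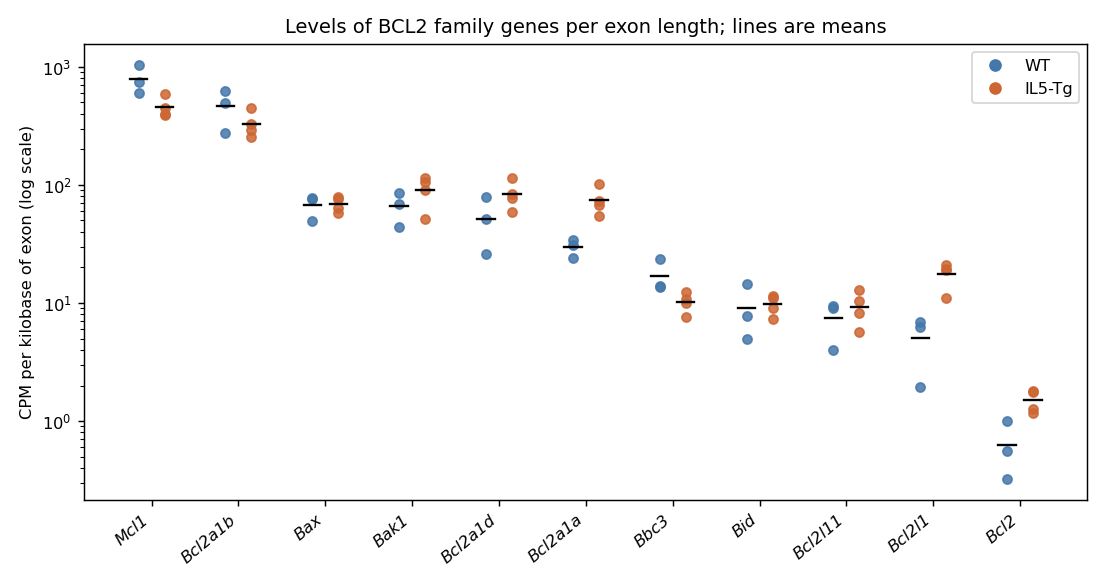
Levels in CPM per kilobase of exon (vertical log axis) of the 10 members and Bcl2a1a, ordered by the WT mean, with 1 point per library, WT in blue, IL5-Tg in orange and lines at the means. Mcl1 and Bcl2a1b lead in both groups, and Bcl2 is lowest in both.

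The genes whose pattern over the 7 libraries was most like that of Bcl2l1, among 7915 others with a mean of at least 10 CPM, were Tars2 (Pearson r = 0.986 of log2(CPM + 1)), Tinagl1 (0.982) and Tep1 (0.980). For Mcl1 they were Neurl3 (0.991), H2-K1 (0.987) and Stx11 (0.986). These correlations share the 7 libraries and their scaling, are the highest of many, and describe likeness only. In both sets WT replicate 3 was at an extreme, with the lowest value of each gene like Bcl2l1 and the highest of each gene like Mcl1.

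By edgeR 0 of the other family genes and of the genes linked to the family were called, and by DESeq2 only Bcl2a1a was. Of the other anti-apoptotic genes, Bcl2l2 was at 2.93 to 9.97 CPM over the 7 libraries (log2 fold change 0.39; edgeR adjusted p = 0.910), and Bcl2l10 was not tested for lack of reads. The pore former relative Bok was at 0 to 13.0 CPM, with 0 reads in WT replicate 3. Of 5 other BH3-only genes 3 were tested, 0 were called, and the median log2 fold change was -0.20. Pmaip1, which encodes NOXA, a BH3-only protein that binds MCL1, was at 306, 75.4 and 299 CPM in WT and 46.4, 87.5, 81.6 and 158 CPM in IL5-Tg libraries, overlapping through WT replicate 2 (log2 fold change -1.28; edgeR adjusted p = 0.513). Bmf was at 7.47 to 17.1 CPM in WT and 11.5 to 12.6 CPM in IL5-Tg libraries. Among more distant relatives and genes linked to the family or to mitophagy, 0 of 7 tested genes were called, with a median of -0.25. Not all of these 7 are BCL2 family members. The smallest p-values there were those of Bag1 (-0.56), a cochaperone that binds BCL2, and Bnip3l (-0.51).

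Upstream of the family, 1 of 18 genes of IL-5 receptor, STAT5 and PIM signalling was called by edgeR, in the higher direction, and DESeq2 called 2. Socs1, the feedback inhibitor of cytokine receptors, was at 19.6, 16.5 and 18.8 CPM in WT and 53.5, 76.2, 84.5 and 59.4 CPM in IL5-Tg libraries (log2 fold change 1.90; edgeR adjusted p = 0.0165). It passed in 4 of the 7 fits that left out 1 library, with adjusted p of 0.0108 to 0.0432 by edgeR. It did not pass without WT replicate 1, IL5-Tg replicate 2 or IL5-Tg replicate 3, nor by limma-voom. Socs2, another feedback inhibitor of this signalling, was just outside the threshold. It was at 19.9, 5.49 and 3.97 CPM in WT and 94.9, 92.1, 69.2 and 78.9 CPM in IL5-Tg libraries, with no overlap and a log2 difference by edgeR of 3.08 (adjusted p = 0.0502). Socs2 was called in 10 of the 15 alternatives, DESeq2 (adjusted p = 9.43e-08) and limma-voom (adjusted p = 0.0441) among them, and not without WT replicate 2 or without any 1 of the 4 IL5-Tg libraries. The median log2 fold change of that list was 0.22. Of 11 tested regulators of family expression and turnover 0 were called, 1 lay above 0, and their median log2 fold change was -0.31. The transcriptional repressor Bcl6 was at 17.7 to 29.0 CPM in WT and 7.38 to 10.9 CPM in IL5-Tg libraries (log2 fold change -1.31; edgeR adjusted p = 0.176, and 0.0378 by DESeq2). Ddit3, the stress factor CHOP, which can induce BH3-only genes, was at 25.1 to 31.4 CPM and 9.74 to 18.1 CPM (edgeR adjusted p = 0.320 for a log2 fold change of -0.98).

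Downstream of the family, 0 of 17 genes of the apoptosome, caspases, their inhibitors and the VDAC channels were called, and the median log2 fold change was 0.063. Groups did not overlap for 0 of these 17. The smallest p-values were those of the IAP genes Birc3, at 154 to 469 CPM in WT and 132 to 204 CPM in IL5-Tg libraries (log2 fold change -1.13; edgeR adjusted p = 0.344), and Birc2 (-0.92; edgeR adjusted p = 0.631). In the death receptor pathway 0 of 9 tested genes were called, with a median of -0.018. Fas, the receptor that can feed into BID through caspase-8, was at 75.9, 37.2 and 101 CPM in WT and 27.6, 27.0, 24.7 and 29.2 CPM in IL5-Tg libraries. The groups did not overlap, and the IL5-Tg libraries were closely spaced (log2 fold change -1.40; edgeR adjusted p = 0.137, 0.0164 by DESeq2 and 0.0207 by edgeR without WT replicate 2). Cflar, the inhibitor of caspase-8, was at 26.3 to 42.7 CPM in WT and 18.1 to 23.0 CPM in IL5-Tg libraries (log2 fold change -0.81; edgeR adjusted p = 0.385).

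The promoters of the members were searched for the letters TTCNNNGAA on both strands, the core that STAT5 is known to bind, in RefSeq windows of the GRCm38.p6 build that run from 250 bases before to 50 bases after each annotated start. All 10 members had a window, 15 in all, and 0 of 15 held a match. Over all genes 8.30% of 32851 such windows held it. No match says only that these letters are not in these windows, and sequence farther from the start was not searched.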

How the data were processed

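Raw read counts for each gene symbol were deposited, 1 column per library; the values are whole and column totals differ. Reads were 42-base pairs from stranded mRNA libraries, per the labels' protocols. Per the submitters' processing notes, bcl2fastq 2.20, Bowtie, STAR and mm10 were used; which program, annotation and strand setting made the counts is not given in the sources used here. Ambiguous reads (0.750% to 0.943% of a library) and reads of no feature were left out. Reads of no feature made up 15.6% to 18.2% of WT and 9.15% to 13.0% of IL5-Tg libraries. The most common low count was also higher in every WT library (5 to 12) than in any IL5-Tg library (1 to 4). Such differences between libraries cannot be told apart from genotype here. Replicate numbers follow accession order and only name libraries.

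The test was edgeR 4.0.16 in R 4.3.3 (TMM, filterByExpr, robust quasi-likelihood F test, genotype as the only term, all 7 libraries), with Benjamini-Hochberg adjustment over 12428 genes. All 10 members passed the filter. Standard errors are the fold change divided by the root of F, and 95% intervals are unadjusted. The procedure was tested on simulated data. Alternatives were RLE factors, DESeq2 1.42.0, limma-voom (limma 3.58.1), 2 other count filters, division by the most common low count, a marker covariate, a block by title start, and leaving out each library. The ratios without WT replicate 3 were added after seeing the data. The most common low count is the count of at least 1 at which the mean number of genes, over it and its 2 neighbours on each side, is highest. The members and lists were chosen with earlier results of these data known. Text names all members, Il5, called genes of each pathway list or else those with the 2 smallest p-values, and the 3 genes most like Bcl2l1 and Mcl1; other names were chosen after their values were seen. Positions and exon lengths are from GENCODE vM21 (mm10).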

Additional observations from a re-analysis of the deposited data

Results flagged for a closer look

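In the 4 IL5-Tg libraries, replicate 3 lay apart from the others in the log2 ratio of Bcl2 to Mcl1 reads, at -6.35 against -7.05 to -6.98. It also lay apart in the ratio of Bcl2a1d to Mcl1, at -4.71 against -4.39 to -4.37. The gap to the nearest library was 0.893 and 0.925 of the whole range, above Dixon's 95% critical value for 4 libraries. These were 2 of 26 values checked, of which chance flags about 1 in 20.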

How the results depend on the processing

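No member was called in 14 of 15 alternatives to the edgeR test, and DESeq2 called 1, Bcl2l1. Over all genes the count of 51 became 225 with DESeq2, 32 with limma-voom, 100 after division by the most common low count and 106 with the marker covariate, and 16 to 97 without 1 library (16, 16 and 17 without IL5-Tg replicates 1, 2 and 3, 30 without IL5-Tg replicate 4, and 19, 61 and 97 without WT replicates 1, 2 and 3). Of the 10 members, 8 kept their sign in all 15 alternatives. Bax changed sign to -0.15 with the marker covariate, -0.17 with the block, -0.12 when WT replicate 3 was left out and -0.041 when IL5-Tg replicate 3 was (range without 1 library -0.12 to 0.17). Bid changed sign to -0.17 without WT replicate 2 (range -0.17 to 0.64), and the summed Bcl2a1 genes to 0.075 without WT replicate 1 (range -0.40 to 0.075). The cause was not tested. Bcl2l1 ranged from 1.20 to 2.09, Bcl2 from 0.95 to 1.80, Mcl1 from -0.95 to -0.51, Bbc3 from -0.87 to -0.31, Bak1 from 0.16 to 0.70 and Bcl2l11 from 0.035 to 0.56 over all 15.

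Only 2 WT libraries share the first digits of their title with 1 IL5-Tg library each (82 and 86), and the labels do not say what the digits mean. Their deviations from the group means correlated at 0.175 and -0.023, inside the range of -0.40 to 0.54 of pairs with unlike starts. These values cannot show whether libraries were paired, and no pairing was assumed in the main test. With a replicate block by title start 52 genes and 0 members were called, with Bcl2l1 at 1.20 and Mcl1 at -0.75. Starts 81 and 87 each occur in 1 genotype only, so the genotype term of that fit rests on the libraries starting 82 and 86. Within these pairs, Bcl2l1 was higher in the IL5-Tg library by 1.58 and 0.81 on the log2 scale and Mcl1 differed by -0.93 and -0.57. The fewest reads limit Bcl2 (48 to 225) and Bcl2l1 in WT replicate 3 (94). These are raw reads, and the most common low count was 5, 8 and 12 in WT replicates 1 to 3. In IL5-Tg libraries it was 1 to 4, so raw reads may overstate the counting depth, more so in WT. How many independent molecules the reads stand for was not tested.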
